A study of Mus musculus with 10 samples.

Results

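A set of 28 genes was found at high levels in outer hair cells (OHCs) of the mouse cochlea at postnatal day 7 (P7) and at far lower levels in the 4 other cochlear cell groups of the same bulk RNA-seq experiment. The level of a gene was its CPM, the reads counted on it after scaling the reads counted on all genes of that library to 1000000. A gene entered the set when both OHC (P7) libraries reached 10 CPM and the lower of them was at least 5 times the highest of the other 8 libraries. Of the 34590 genes listed, 6581 reached 10 CPM in both OHC (P7) libraries, and 28 of these, or 0.425%, met the ratio. All 10 libraries were used to choose the genes, so their levels in OHCs (P7) against the other cells are given here as a description, without a test. The genes just inside the ratio of 5 were *Zfp503* at 5.03, *Kit* at 5.08 and *Cit* at 5.20, and the genes just outside it were *Onecut2* at 4.74, *Slc9a3r2* at 4.20 and *Kndc1* at 4.18.

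Each cell group had 2 libraries of cells picked by hand under fluorescence, and the 2 values of a group are given below in the order in which its libraries are named here. Supporting cells, SCs (P26), libraries 12 (labelled day 27) and 11 (labelled day 26), were Deiters' and pillar cells of mice with Fgfr3iCreER and the Cre-dependent Rosa26-CAG-loxP-stop-loxP-tdTomato reporter. Converted hair cells, cHCs (P33), libraries 13 and 16, came from mice that carried the same alleles with Atoh1-HA and alpha9 AChR-EGFP in addition, in which SCs had been driven towards a hair cell state by the Atoh1 transgene. Tamoxifen was given at P12 in these lines. OHCs (P22), labelled day 21 and day 22 and named by these days, came from prestin-YFP knock-in heterozygotes. Inner hair cells, IHCs (P74), labelled day 74 and day 75, came from Pval-Cre mice with the tdTomato reporter. For OHCs (P7), libraries 15 and 14, the genotype on the labels is prestin-YFP, whereas the study's supplementary methods give Prestin-CreERT2 with tdTomato and an early course of tamoxifen, so the allele is uncertain. If it was the latter, age, Cre line and tamoxifen distinguish OHCs (P7) from OHCs (P22) together and cannot be told apart. Library numbers also ran in separate series, with 11 to 16 given to the SC, cHC and OHC (P7) libraries and far higher numbers to the rest, and series and cell group cannot be told apart. The labels add an m to the day 21, day 74 and day 75 libraries and an f to the day 22 library. *Xist*, the RNA of the inactive X chromosome in females, was between 935 and 1930.5 CPM in 5 libraries (SC 11, cHC 13, both OHC (P7) and OHC (P22) day 22) and between 0.513 and 3.41 CPM in the other 5, where 4 Y-linked genes summed to between 190.2 and 285.7 CPM. Both OHC (P7) libraries were thus of the *Xist*-high kind and both IHC libraries of the other, and the part of sex in the levels was not tested.

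OHCs amplify sound-driven vibration through the motor protein prestin, and IHCs pass the signal to the auditory nerve. At P7 a mouse cannot yet hear: the hair bundles already transduce, the basolateral currents and the efferent synapses are still changing, and the cytosol is heavily buffered for calcium. The surrounding epithelium is at that age secreting the tectorial membrane, a sheet of collagen and tectorins above the hair bundles. Some genes of this stage are known to fall as OHCs mature, *Calb1* among them.

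Promoters of 22 of the 28 genes, 23 promoters in all, were held in the RefSeq table (GRCm38.p6, from 250 bases before to 50 bases after the transcript start). The E-box CAGCTG, letters that basic helix-loop-helix factors such as Atoh1 can bind, was searched for on both strands (it reads the same on both). It was in 6 of the 23 promoters (26.1%), in 16.3% of all 32851 promoters and in 14.3% of the 6055 promoters of genes at 10 CPM or more in both OHC (P7) libraries. The 7 windows are shown because the other results ask whether Atoh1-converted cells hold these genes; each is written 5′ to 3′ on the strand of its gene, with the E-box in capitals. *Pcsk2* (chr2:143545986-143546015, plus strand), *Pxdn* (chr12:29937973-29938002 and chr12:29938005-29938034, plus), *Ccl28* (chr13:119623624-119623653, plus), *Slc4a8* (chr15:100761514-100761543, plus), *Calca* (chr7:114636313-114636342, minus) and *1700071M16Rik* (chr17:43591671-43591700, minus) held them, and in *Calca* the E-box starts 28 bases after the transcript start.
Pcsk2: gacccgggcagcCAGCTGggcaggggaggg
Pxdn, first: cgcgcatgtgcaCAGCTGgcgcccccctcc
Pxdn, second: gccccccgcgcaCAGCTGggacgtgggccg
Ccl28: taaggacctcatCAGCTGgcacacggctac
Slc4a8: aagagtcaggtgCAGCTGcaaacagaggca
Calca: cgggaataagagCAGCTGcaggcgctggga
1700071M16Rik: gcagccagtgagCAGCTGtgtccccacaca
A match is a string of letters and not a site of binding.

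The remaining motifs were counted on both strands in the same promoters. The E-box CAGATG was in 5 promoters (21.7%, against 17.2% of all and 10.5% of those of genes present in OHCs (P7)), the CCAAT box in 10 (43.5%, against 37.4% and 36.6%), and GTTGCC, a part of an RFX site, in 3 (13.04%, against 12.5% and 12.9%). The GC box GGGCGG was in 13 (56.5%, against 35.7% and 65.7%). TATAAA was in none of the 23, against 13.6% and 5.995%, and TAATTA in none, against 5.29% and 2.56%. CpG dinucleotides at 0.6 or more of their expected number were found in 9 promoters of the set (39.1%), in 35.8% of all and in 76.5% of those of genes present in OHCs (P7). The median GC content was 60%, 52.7% and 62.3%, respectively.

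Counts on genes ranged from 15016129 (OHC (P7) library 15) to 40518766 (SC library 11), and 3 counts, taken as the floor of detection, corresponded to between 0.0740 and 0.200 CPM. The files attached to 4 of the 10 sample records held counts of another library, and each file was assigned by its constant ratio to the study's own CPM columns, which gave the same library as the file name in 10 of 10 cases. With the files as attached, 2 genes met the rule and none of the 28 was among them. Both OHC (P7) libraries held the defining OHC genes: *Slc26a5*, which encodes prestin, was at 1052 and 1074 CPM, and *Ocm*, the OHC calcium buffer oncomodulin, was at 3373 and 3103 CPM. All 6 OHC markers were at 10 CPM or more in both. Markers of the neighbouring epithelium were also present and differed between the libraries. The 9 markers of the greater and lesser epithelial ridge summed to 913 CPM in library 15 and 1775 in library 14, against 3165 and 5831 in SCs and 5.65 and 8.14 in OHCs (P22), with *Crabp1* and *Bmp4* at 0 in both OHC (P7) libraries. The 10 supporting-cell markers summed to 112 and 362 CPM, against 1668 and 2192 in SCs. The 8 fibroblast markers summed to 406 and 73.5 CPM, and *Col1a2* and *Col3a1* were at 221 and 118 CPM in library 15 and at 0 in library 14. The part of these cells in the levels below was not tested.

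The 28 genes together took 9035 and 9136 CPM of the OHC (P7) libraries and between 27.5 and 338.9 CPM of the other 8. *Ighm* and *Calb1* took most of it, and the other 26 genes took 2809 and 2570 CPM in OHCs (P7) and between 27.5 and 132 CPM elsewhere. The ratio of the lower OHC (P7) library to the highest other library was 100 or more for 5 genes, from 10 to under 100 for 12 and under 10 for 11, while among the 6581 genes its median was 0.377 and 5.99% exceeded 1. In 11 genes, every one of the other 8 libraries was below 1 CPM. The OHC (P7) libraries differed by a median factor of 1.33 for the 28 genes and 1.42 for the 6581, and by at most 2.78 (*Pcsk2*). In bulk samples, fewer cells of a type and less RNA per cell cannot be told apart.

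**Figure D1:**
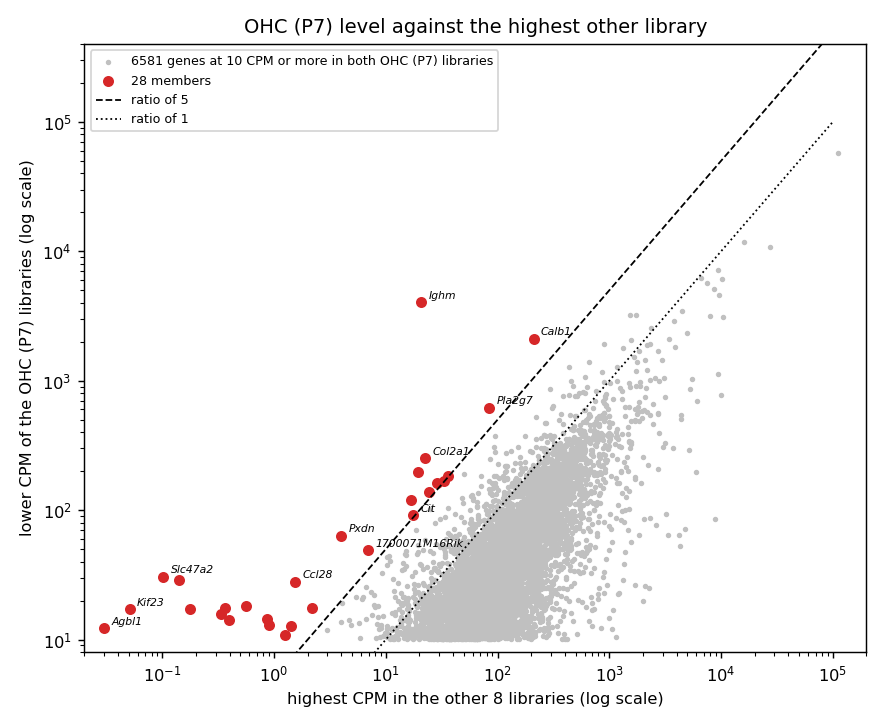
Each grey point is 1 of the 6581 genes at 10 CPM or more in both OHC (P7) libraries, with the highest CPM of the other 8 libraries on the x axis and the lower OHC (P7) CPM on the y axis, both on log scales. The 28 red points lie above the dashed line of a ratio of 5, from *Zfp503* at 5.03 to *Agbl1* on the far left, which had 1 count in the 8 other libraries.

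The same rule found 36 genes in SCs, 145 in cHCs, 30 in OHCs (P22) and 58 in IHCs. Among the other 8 libraries, the highest level of a gene of the set was in cHCs for 14 genes (50%), in OHCs (P22) for 6, in SCs for 5 and in IHCs for 3, while it was in cHCs for 23.9% of the 6581 genes. Some of these highest levels lay below the floor of 3 counts: 2 counts for *Slc47a2* and 1 for *Agbl1* in cHCs, and 1 for *Kif23* in OHCs (P22). By group mean, cHCs were the highest of the other groups for 12 genes. When the cHC libraries were left out, an alternative added after seeing the data, 64 genes met the rule, the 28 included. Leaving out libraries of other cells can only add genes. No other cell group was left out as a whole, so the 64 cannot be set against a like number. The median level in cHCs was 0.902% of the mean OHC (P7) level, in OHCs (P22) 0.257%, in SCs 0.142% and in IHCs 0.0774%, which the rule held low.

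**Figure D2:**
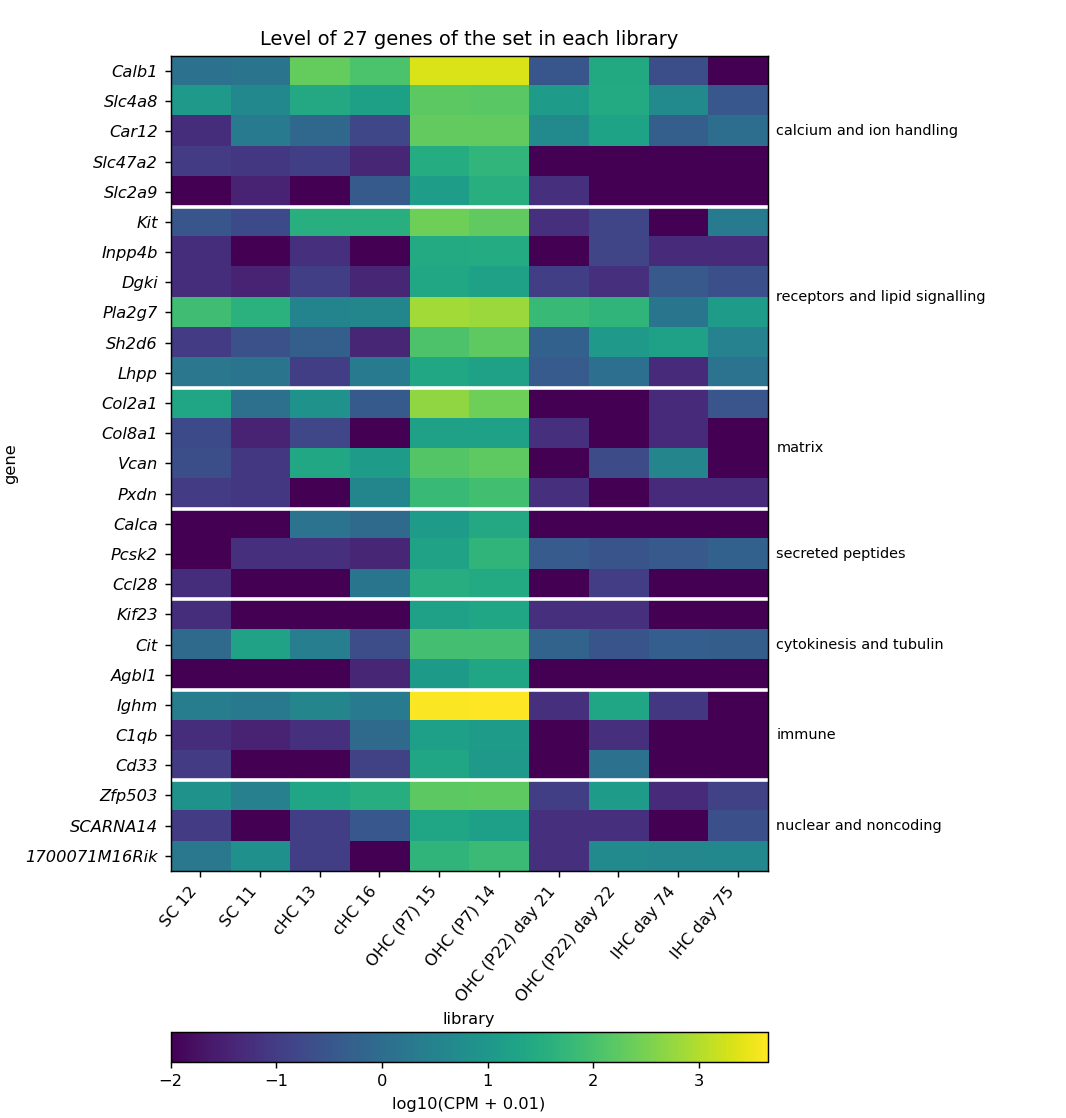
Heat map of log10(CPM + 0.01) of 27 of the 28 genes (rows, grouped by function after their values were seen) in the 10 libraries (columns). The OHC (P7) columns are the brightest in every row, and the cHC columns stand out for *Calb1*, *Kit*, *Vcan* and *Zfp503*.

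Calcium and ion handling genes numbered 5. *Calb1* (chr4:15808411-15835211, plus strand, mm9) encodes calbindin-D28k, a mobile calcium buffer. It was at 2183 and 2099.6 CPM in OHCs (P7), 209.8 and 113 in cHCs, 1.33 and 1.48 in SCs, 0.308 and 26.6 in OHCs (P22), and 0.220 and 0 in IHCs. The cHC libraries stood between OHCs (P7) and all others, and the OHC (P22) libraries lay on either side of the SC values. The lower OHC (P7) library was 10.01 times the higher cHC library (exact 95% counting interval 9.70 to 10.3). The other calcium buffers did not meet the rule. *Ocm* was at 4402 and 10310.5 CPM in OHCs (P22), above OHCs (P7), *Pvalb* was highest in cHCs (717 and 1457 CPM) and *Calb2* in IHCs (1136 and 1504 CPM).

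*Car12*, a carbonic anhydrase at the cell surface, was at 196.9 and 199 CPM in OHCs (P7), 4.82 and 19.3 in OHCs (P22), 0.0443 and 2.25 in SCs, 0.765 and 0.151 in cHCs, and 0.513 and 1.09 in IHCs. OHCs (P22) came second and both were above every library of the remaining 3 groups. *Slc4a8*, a sodium-driven bicarbonate exchanger, was at 168 and 163 CPM in OHCs (P7), 12.7 and 28.9 in OHCs (P22), 25.3 and 16.1 in cHCs, 11.6 and 4.24 in SCs, and 4.69 and 0.339 in IHCs, so that OHCs (P22) and cHCs overlapped. *Slc47a2*, a transporter that exports organic cations, was at 30.7 and 51.6 CPM in OHCs (P7) and had at most 3 counts in any other library. Its mean was at least 280-fold higher than OHCs (P22) and at least 369-fold higher than IHCs, both at 0 counts, against the floor of 3 counts per library. *Slc2a9*, a urate transporter, was at 14.2 and 37.5 CPM, with 13 counts in cHC library 16 as the most elsewhere.

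**Figure D3:**
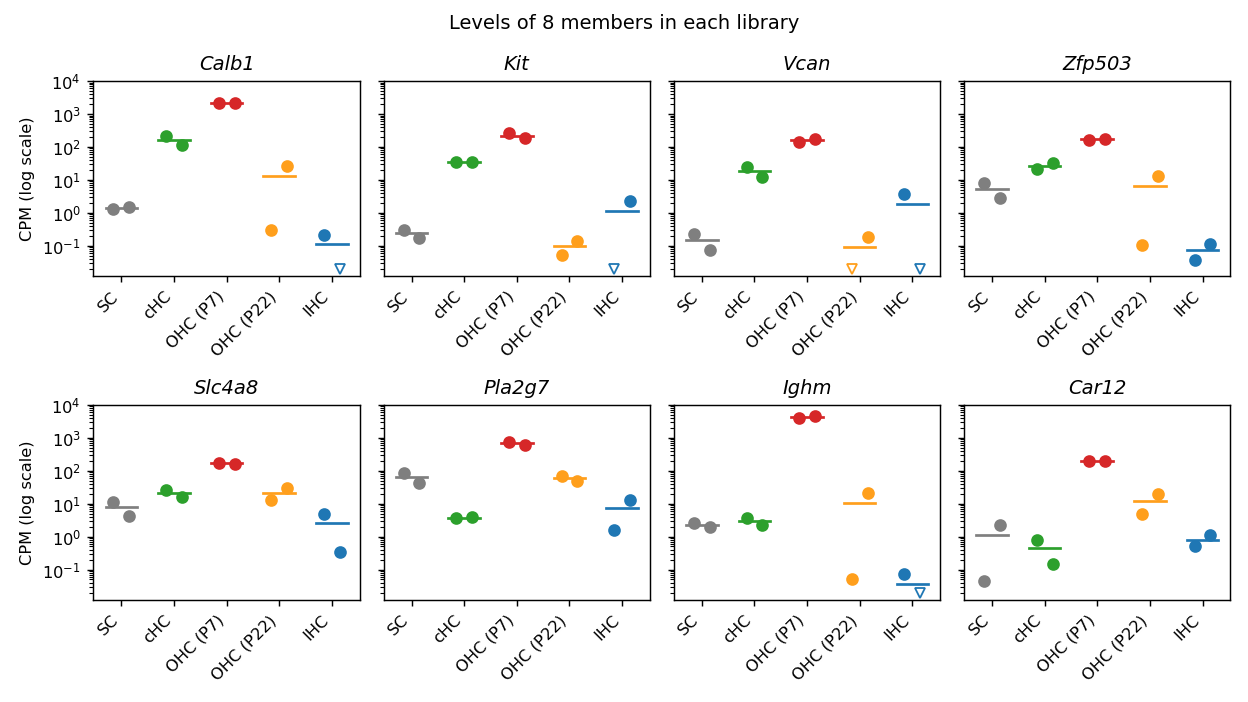
CPM on a log scale of 8 genes of the set, with 1 point per library, a bar at the mean of each group of 2, and an open triangle at the lower edge for 0 counts. *Calb1*, *Kit* and *Vcan* in cHCs sit between OHCs (P7) and SCs, *Pla2g7* is lower in cHCs than in SCs or OHCs (P22), and *Ighm*, *Calb1* and *Zfp503* differ widely between the OHC (P22) libraries.

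Receptors and lipid signalling genes numbered 7. *Kit* (chr5:75970941-76052747, plus strand, mm9), the receptor tyrosine kinase for stem cell factor, was at 257.5 and 184 CPM in OHCs (P7), 36.1 and 34.8 in cHCs, 0.310 and 0.173 in SCs, 0.0513 and 0.140 in OHCs (P22), and 0 and 2.23 in IHCs. Levels in cHCs were 16.1% of those in OHCs (P7), and no other group reached 3 CPM. *Kitl*, which encodes the ligand of Kit, had no count in either OHC (P7) library and reached 21.3 CPM in the IHC day 75 library.

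*Pla2g7* (chr17:43705047-43749150, plus strand, mm9), a secreted phospholipase that inactivates platelet-activating factor, was at 734 and 620 CPM in OHCs (P7), 84.2 and 40.8 in SCs, 67.4 and 49.2 in OHCs (P22), 1.54 and 12.9 in IHCs, and 3.62 and 3.86 in cHCs. SCs and OHCs (P22) overlapped in the middle, and IHCs and cHCs overlapped at the bottom. The gene *1700071M16Rik* (chr17:43725289-43729391, minus strand) is a noncoding transcript whose exons overlap those of *Pla2g7* on the opposite strand. It was at 49.1 and 70.0 CPM in OHCs (P7), 1.86 and 6.91 in SCs, 0.0513 and 5.01 in OHCs (P22), 4.03 and 4.34 in IHCs, and 0.102 and 0 in cHCs. Whether counting used the strand is not given in the sources used here, so reads of these overlapping genes cannot be told apart.

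*Sh2d6*, which encodes an SH2 domain protein, was at 120.7 and 177 CPM in OHCs (P7) and next highest in the IHC day 74 library (17.0 CPM) and the OHC (P22) day 22 library (11.6 CPM). The lipid kinase and phosphatase genes were close to absent elsewhere. *Inpp4b*, a phosphatase of phosphatidylinositol 3,4-bisphosphate, was at 28.8 and 29.2 CPM, with 3 counts in the OHC (P22) day 22 library as the most elsewhere (ratio 205, exact 95% counting interval 69.8 to 999.7). *Dgki*, a diacylglycerol kinase, was at 22.8 and 17.4 CPM and reached 0.366 CPM in the IHC day 74 library. *Lhpp*, a phosphatase gene, was at 24.4 and 17.5 CPM and between 0.0366 and 2.20 CPM elsewhere.

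Matrix genes numbered 4. *Col2a1*, the fibrillar collagen of cartilage and of the tectorial membrane, was at 512 and 251 CPM in OHCs (P7), 22.6 and 1.21 in SCs, 7.59 and 0.392 in cHCs, 0.0366 and 0.302 in IHCs, and 0 and 0 in OHCs (P22). The OHC (P7) mean was at least 2594-fold above OHCs (P22), against the floor of 3 counts per library. *Vcan*, the large proteoglycan versican, was at 138 and 178 CPM in OHCs (P7), 24.2 and 12.5 in cHCs, 0.221 and 0.0740 in SCs, 0 and 0.187 in OHCs (P22), and 3.77 and 0 in IHCs. *Pxdn*, peroxidasin, which crosslinks basement membrane collagen, was at 63.4 and 87.5 CPM, with 3.98 CPM in cHC library 16 and at most 0.0885 in the other 7. *Col8a1*, a network collagen, was at 17.4 CPM in both OHC (P7) libraries and at most 0.177 elsewhere. Connective tissue and the epithelial ridges also express such genes. The fibroblast markers summed to 406 and 73.5 CPM in OHCs (P7) and to 703 and 772 CPM in SCs. The sum of the 9 ridge markers was also higher in SCs. However, 2 of them, *Tecta* and *Tectb*, were higher in both OHC (P7) libraries than in all 8 others. The part of such cells in the levels of the matrix genes was not tested. Of 16 tectorial membrane and otic matrix genes, 10 were at 10 CPM or more in both OHC (P7) libraries. Of these, 5 were higher in both than in all 8 others (5.99% of the 6581 genes were), and *Col2a1* alone met the ratio of 5. The place of *Col2a1* among the 5 was fixed by the rule. *Tecta*, which encodes alpha-tectorin, was at 47.5 and 189.9 CPM in OHCs (P7) and reached 19.5 in the IHC day 75 library, and *Tectb*, which encodes beta-tectorin, was at 619 and 1581 CPM and reached 307 in SC library 11. *Col11a1* was at 141 and 38.9 CPM and reached 14.4 in the IHC day 75 library. Of 8 cartilage collagens and other partners of *Col2a1*, 5 were at 10 CPM or more in both OHC (P7) libraries. Only 1 of the 8 was at that level and higher in both than in all 8 other libraries. The 8 genes summed to 493 and 288 CPM in OHCs (P7) and to 486 and 203 in SCs. The cartilage genes *Acan*, *Matn1* and *Comp* were below 1 CPM in both OHC (P7) libraries.

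Genes of secreted peptides numbered 3. *Calca*, which encodes calcitonin and calcitonin gene-related peptide, was at 12.8 and 25.3 CPM in OHCs (P7), 1.43 and 0.874 in cHCs, and without a count in the other 6 libraries. Its mean was at least 129-fold above OHCs (P22), 184-fold above SCs and 171-fold above IHCs against the floor of 3 counts per library. Its paralogue *Calcb* was at 2.73 and 5.81 CPM in OHCs (P7) and below 1 CPM elsewhere, and the 2 genes are similar enough in sequence that reads may have been shared. *Pcsk2*, a convertase that cuts prohormones, was at 18.3 and 50.9 CPM in OHCs (P7) and at most 0.566 CPM elsewhere. Its exons overlap those of antisense genes. *Pcsk1*, the other such convertase, was at 0.533 and 2.84 CPM in OHCs (P7) and at 7.70 and 21.2 in cHCs. *Ccl28*, an epithelial chemokine, was at 33.9 and 27.8 CPM in OHCs (P7) and 1.54 CPM in cHC library 16, and its receptor genes *Ccr10* and *Ccr3* had no count in OHCs (P7).

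Genes of cytokinesis and of tubulin modification numbered 3. *Kif23*, the kinesin of the centralspindlin complex, was at 17.1 and 22.2 CPM in OHCs (P7) and had 1 count at most in any other library. *Cit*, citron kinase, which acts at the midbody of dividing cells, was at 91.4 and 93.5 CPM in OHCs (P7) and 17.6 CPM in SC library 11, and at most 2.65 CPM in the other 7. Genes that act with them did not share the pattern. *Racgap1*, the partner of Kif23 in centralspindlin, was at 5.79 and 2.28 CPM in OHCs (P7) and reached 28.9 in SC library 11, *Ect2* was at 1.47 and 6.96 CPM, and *Mki67*, the proliferation marker, was at 0.0666 and 0 CPM. Of 18 cell cycle genes, *Cenpf* alone was at 10 CPM or more in both OHC (P7) libraries, with 25.2 and 10.2 CPM and 8.19 in the OHC (P22) day 22 library. *Agbl1*, which removes glutamates from tubulin, was at 12.3 and 21.8 CPM, and its 1 count elsewhere was in cHC library 16 (ratio 406, exact 95% counting interval 72.03 to 16136).

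Immune genes numbered 3, and *Ighm* had the highest level per length of exon among the 27 genes of the set with an annotated length. *Ighm* (chr12:114659078-114660941, minus strand, mm9) is the constant region of the immunoglobulin mu heavy chain, which B cells express. It was at 4043 and 4466 CPM in OHCs (P7), from 60713 and 166752 counts, or 2958 and 3267 CPM per kb of exon, whereas *Calb1* was at 450.5 and 433 CPM per kb. It was at 20.7 CPM in the OHC (P22) day 22 library and at 0.0513 CPM in the day 21 library, between 1.95 and 3.77 CPM in SCs and cHCs, and at 0.0733 and 0 CPM in IHCs. The lower OHC (P7) library was 195 times the highest other (exact 95% counting interval 178 to 215). The genes of B cells were not found beside it. Among those listed, chosen after *Ighm* was seen, *Cd79a*, *Cd79b*, *Ms4a1*, *Igkc*, *Pax5*, *Blk* and *Cd22* had no count in either OHC (P7) library, and *Igj* was at 0.466 and 0 CPM.

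*C1qb*, a chain of the complement protein C1q, was at 15.5 and 12.9 CPM in OHCs (P7) and 0.905 CPM in cHC library 16. *C1qa* and *C1qc*, which encode the other chains, had no count in OHCs (P7), and neither did *Ptprc* or *Cx3cr1*. The 7 macrophage markers, *C1qb* among them, summed to 17.1 and 14.6 CPM in OHCs (P7) and to between 0.103 and 22.2 elsewhere. Without *C1qb*, they summed to 1.60 and 1.69 CPM in OHCs (P7), 6.42 and 17.0 in SCs, and between 0.103 and 22.2 over all libraries outside OHCs (P7). *Cd33*, a sialic acid receptor of myeloid cells, was at 20.7 and 10.8 CPM in OHCs (P7) and 1.26 CPM in the OHC (P22) day 22 library. Of its myeloid companions *Aif1* was at 13.7 CPM in library 15 alone and *Fcer1g* at 10.7 CPM in library 14, while *Itgam* had no count in either.

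**Figure D4:**
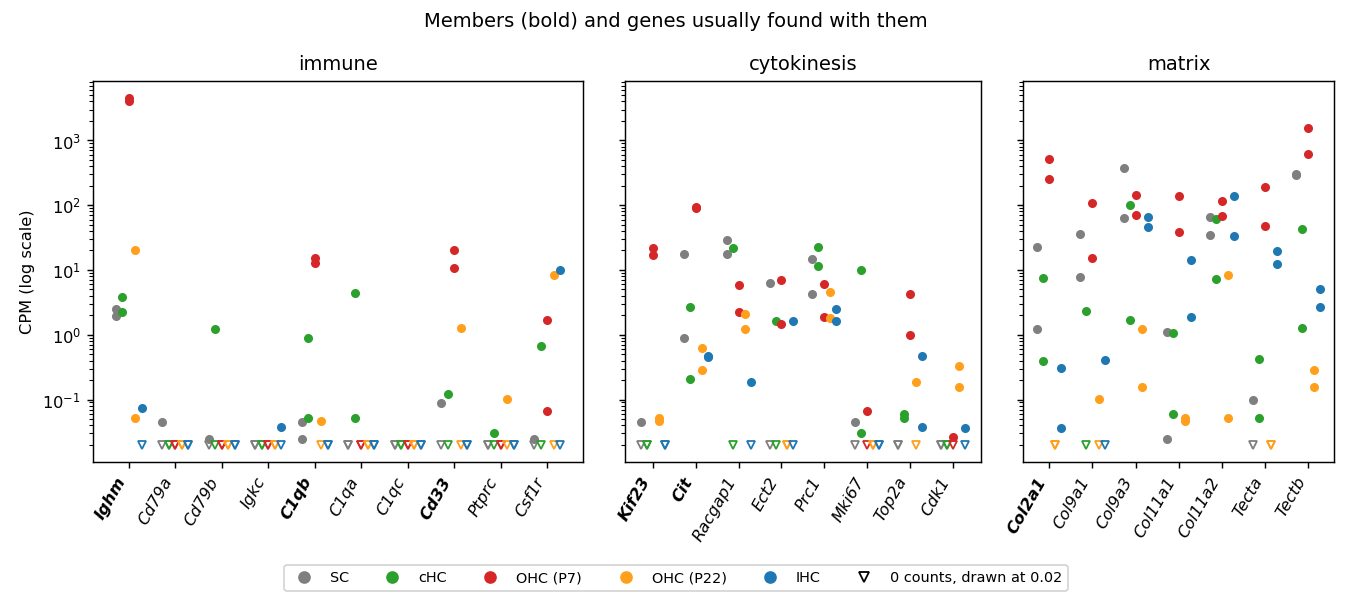
CPM on a log scale, with 1 point per library coloured by cell group, for genes of the set (bold) and genes usually found with them, in panels for immune, cytokinesis and matrix genes. Open triangles mark 0 counts and are drawn at 0.02 CPM. Beside *Ighm*, at 4043 and 4466 CPM in OHCs (P7), *Cd79a*, *Cd79b* and *Igkc* had no count there, whereas *Tecta* and *Tectb* were high in OHCs (P7) together with *Col2a1*.

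Nuclear and noncoding genes were *Zfp503*, *SCARNA14* and *1700071M16Rik*. *Zfp503*, a zinc finger repressor of transcription, was the single transcriptional regulator of the set. It was at 167 and 175 CPM in OHCs (P7), 21.5 and 33.2 in cHCs, 8.10 and 2.84 in SCs, 0.103 and 13.2 in OHCs (P22), and 0.0366 and 0.113 in IHCs. Levels in cHCs were 16.0% of those in OHCs (P7) and above all 6 remaining libraries. *SCARNA14*, a small Cajal body RNA, was at 21.3 and 15.7 CPM. The symbol stands for 3 gene identifiers in the annotation, so its count is uncertain. Of the 28 genes, 24 were annotated as protein-coding, and *Ccl28* was not found under that symbol in the GENCODE vM1 annotation of mm9. The median exon length of the protein-coding genes was 4720 bases, against 4409 bases for the 6305 protein-coding genes at 10 CPM or more in both OHC (P7) libraries.

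Of 10 hair cell markers, *Calb1* was the member. The rule by its form leaves out genes that cHCs, OHCs (P22) or IHCs hold at similar levels. Of all 6581 genes at 10 CPM or more in both OHC (P7) libraries, 0.425% met the ratio of 5. The share higher in both than in all 8 others was 5.99%. Of 228 genes in 9 pathway lists, 100 were at 10 CPM or more in both OHC (P7) libraries, and *Col2a1* met the ratio of 5. Among 28 hair bundle and transduction genes, 24 were at 10 CPM or more in both, 2 were higher there than in all 8 others, and 0 met the ratio. The corresponding counts were 16, 0 and 0 of 25 transcription factors and 16, 1 and 0 of 31 ion channel genes. *Ptprq*, a phosphatase of the bundle, was at 3818 and 3229 CPM in OHCs (P7) and at 1729.9 CPM in cHC library 16. *Espnl*, an actin-bundling protein of the bundle, was at 642 and 771 CPM in OHCs (P7), 191 and 315 in cHCs, and 0 and 0.0468 in OHCs (P22).

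The comparisons that leave out OHCs (P7) were tested with edgeR's quasi-likelihood test over 16891 genes, with Benjamini-Hochberg adjustment and a threshold of 0.05. The rule limits how high a gene of the set can be in these cells but not which of them is higher. All 28 genes were tested because OHCs (P7) carried them past the filter on low counts, and 16 of them passed it in the 8 libraries without OHCs (P7). The share of all genes called, given beside each count of calls, is thus not a like measure for the 28. With OHCs (P7) left out of the fit, 0 of these 16 were called in each comparison. Counts of genes whose groups do not overlap are given for these 16 and for the 16340 genes that passed in the same way. The comparison of cHCs with SCs addressed whether cells driven by Atoh1 hold genes of the neonatal OHC. Of the 28 genes, 1 was called, *Pla2g7*, which in cHCs fell by 4.35 on the log2 scale (SE 0.95, adjusted p = 0.0465), against 1.84% of all genes called. The adjusted p ranged from 4.5e-06 to 0.928 over the alternatives. The call was lost when the OHC (P7) libraries were left out of the fit (0.163), with the compared groups alone (0.117), with limma-voom (0.0880), and without SC library 12 (0.0889), cHC library 13 (0.107) or cHC library 16 (0.179), while the log2 fold change stayed between -4.40 and -3.81 in these fits. Of the 16 genes, both cHC libraries were above both SC libraries for 7, among them *Calb1*, *Calca*, *Kit*, *Slc4a8*, *Vcan* and *Zfp503* (30.6% of the 16340 genes showed this), and below both for *1700071M16Rik* and *Pla2g7* (15.9%).

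Differences above SCs missed the threshold in the edgeR fit of all 10 libraries. *Calca* had 28 and 29 counts in cHCs and none in SCs, so that it was at least 11.1-fold higher in cHCs (against 3 counts per SC library, edgeR adjusted p = 0.246). *Calb1* had a log2 fold change of 6.52 (SE 1.46, edgeR adjusted p = 0.0517) in cHCs over SCs, from 7854 against 90 counts, a ratio of 104 (exact 95% counting interval 84.8 to 129.9). *Kit* had a log2 fold change of 6.90 (SE 1.67, edgeR adjusted p = 0.0724), from 1864 against 14 counts, a ratio of 159 (94.6 to 292). *Vcan* had a log2 fold change of 6.67 (SE 2.01, edgeR adjusted p = 0.155), from 888 against 8 counts, a ratio of 133 (67.1 to 308). In the cHC libraries, the epithelial ridge markers summed to 1281 and 15.3 CPM, the fibroblast markers to 235 and 21.1 CPM (703 and 772 in SCs) and the supporting-cell markers to 1528 and 1047 CPM, and the part of these cells in the differences was not tested. In *Calb1*, *Kit* and *Vcan*, both cHC libraries exceeded both SC libraries. The counting intervals leave out the spread between libraries, which the edgeR values include. *Kit* passed with DESeq2 (adjusted p = 1.07e-05) and limma-voom (adjusted p = 0.0431). *Vcan* passed with DESeq2 (adjusted p = 0.000595) and missed with limma-voom (adjusted p = 0.0780). With edgeR, both missed with the compared groups alone (adjusted p = 0.101 and 0.183) and when both OHC (P7) libraries were left out (0.259 and 0.334). Over the alternatives, the adjusted p of *Calb1* ranged from 7.71e-18 to 0.947. It passed with DESeq2 (adjusted p = 3.88e-06), with limma-voom (adjusted p = 0.0405), with the compared groups alone (edgeR adjusted p = 0.0218) and without either cHC library or any 1 library outside the comparison, and missed without SC library 12 (0.166), without SC library 11 (0.145) and when both OHC (P7) libraries were left out (0.158).

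Between cHCs and OHCs (P22), 2 of the 28 genes were called, against 3.18% of all genes. *Kit* was higher in cHCs (log2 fold change 8.01, SE 1.81, edgeR adjusted p = 0.0378), with 1864 counts against 4, a ratio of 361 (exact 95% counting interval 141 to 1325). *Pla2g7* in cHCs fell by 4.67 on the log2 scale (SE 0.97, edgeR adjusted p = 0.0257), with levels of 3.62 and 3.86 CPM against 67.4 and 49.2. Of the 16 genes, both cHC libraries were above both OHC (P22) libraries for *Calb1*, *Calca*, *Col2a1*, *Kit*, *Vcan* and *Zfp503* (33.7% of the 16340 genes showed this) and below both for *Car12*, *Pcsk2*, *Pla2g7* and *Sh2d6* (15.3%). Both calls were lost when the OHC (P7) libraries were left out of the fit (adjusted p = 0.154 for *Kit* and 0.0892 for *Pla2g7*) and with the compared groups alone (0.0613 and 0.0779), each with edgeR, and the *Pla2g7* call also with limma-voom (0.0905). The *Kit* call was also lost without the OHC (P22) day 21 library (adjusted p = 0.167) or the day 22 library (adjusted p = 0.0974), and the *Pla2g7* call without cHC library 13 (0.0852) or 16 (0.0768) or the OHC (P22) day 21 library (0.0817), each with edgeR. In these fits the log2 fold change was between 7.87 and 8.33 for *Kit* and between -4.72 and -3.78 for *Pla2g7*. Over the alternatives, the adjusted p ranged from 4.04e-07 to 0.361 for *Kit* and from 7.67e-07 to 0.649 for *Pla2g7*. These 2 comparisons share the cHC libraries.

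Between IHCs and OHCs (P22), edgeR called 0 of the 28 genes, against 1.46% of all genes, and 6 had an unadjusted p under 0.05 (15.2% of all genes): *Calb1*, *Car12*, *Ighm*, *Pla2g7*, *Slc4a8* and *Zfp503*. DESeq2 called 6 of the 28, limma-voom 0 and edgeR without a filter on low counts 6. The shares of all genes called in these 3 fits are not given here, so these counts are no result about the set. *Agbl1*, *Calca* and *Slc47a2* had no count in either group and so could not be called. With OHCs (P7) left out of the fit, edgeR called 0 of the 16 genes that passed the filter. Of the 16 genes, both IHC libraries were above both OHC (P22) libraries for *Col2a1* (28.3% of the 16340 genes showed this) and below both for *Calb1*, *Car12*, *Pla2g7* and *Slc4a8* (14.3%). For *Col2a1* this rested on 1 and 8 counts in IHCs against 0 and 0 in OHCs (P22), and 1 count is below the floor of detection. *Ighm* had a log2 fold change of -7.93 (SE 1.80, edgeR adjusted p = 0.0617), which became -1.26 without the OHC (P22) day 22 library (adjusted p = 0.761).

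The OHC (P22) libraries, which also differ in *Xist* (0.513 CPM at day 21 and 935 at day 22), were far apart for several genes of the set. *Ighm* had 1 count in the day 21 library and 442 in the day 22 library, *Calb1* had 6 and 568, *Zfp503* had 2 and 282, *Sh2d6* had 11 and 248, and *1700071M16Rik* had 1 and 107. The day 22 library held more counts on genes (21365585 against 19483713) and counts on more genes (16948 against 14332). It was the higher for 15 of the 28 genes, or 53.6%, with 4 ties, and for 74.3% of the 6581 genes, and it was the highest of the other 8 libraries for 5 genes of the set, against 1 for the day 21 library. Summed over the set, OHCs (P22) held 87.8 and 179 CPM, of which *Pla2g7* gave 67.4 in the day 21 library and 49.2 in the day 22 library. Without the day 22 library, the rule found 37 genes, the 28 included.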

How the data were processed

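RNA of handpicked cells was extracted with PicoPure, and cDNA was amplified with the Ovation RNA-Seq System V2 (single primer isothermal amplification). The authors trimmed adapters with Cutadapt, mapped reads to mm9 with STAR and BWA, counted them per gene with HTSeq and deposited raw counts, without normalization; the submitters' notes also name CASAVA 1.7. Strand and overlap settings of the counting are not given in the sources used here.

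Rows of unassigned reads (44.2% to 72.1% of a library) were left out, and CPM was computed over all other rows. Files were assigned to libraries by the constant ratio of counts to the study's CPM columns (coefficient of variation under 1%, genes with at least 10 counts). The study calls the pairs of libraries biological duplicates, while the labels do not say so, and p-values measure the spread between these libraries. Counting intervals (exact binomial) and floors leave out amplification and the spread between cells, because the reads carried no molecular identifiers, and so cover counting error only.

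Counts were tested with edgeR 4.0.16 in R 4.3.3 (TMM, filterByExpr by cell type, quasi-likelihood F-test, 1 model of all 10 libraries) after a check on simulated data. The authors' method, limma-voom (limma 3.58.1), and DESeq2 1.42.0 were alternatives. Gene positions came from GENCODE vM1 (mm9), promoters from RefSeq (GRCm38.p6). Genes were named by rank of ratio (20) and of level (15), membership of a gene list, a call, or nearness to the ratio of 5 (3 on each side). The members and lists were chosen with earlier results of these data known, and the lists of B cell genes, of companion genes and of functional groups after the values were seen. The sex-linked genes, and the restriction of overlap counts to genes past the filter without OHCs (P7), were chosen after seeing the data. The values of 1 gene of the set and of 1 companion gene are not reported here.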

Additional observations from a re-analysis of the deposited data

How the results depend on the processing

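No paired analysis was possible because the library numbers in the labels are not shared between cell groups. The number of genes in the set was 50 with a ratio of 3, 17 with a ratio of 10, 16 with 20 CPM, 73 with the mean of the OHC (P7) libraries in place of the lower, 2 with the files as attached to the records, 64 without the cHC libraries and from 29 to 105 when 1 library was left out (91 without OHC (P7) library 15 and 105 without 14). It was 38 with 5 CPM, 29 with TMM-scaled CPM (27 shared, *Cit* lost) and 26 after thinning to the smallest library (*Cd33* and *Kit* lost). The share of all genes called in each alternative fit is not given here. The counts of calls that follow therefore show how far the fits differ and are no result about the set. Of the 28 genes, cHCs against SCs called 6 with DESeq2, 2 with limma-voom, 5 without a filter, 0 without OHCs (P7), 0 with the files as attached and from 0 to 4 without 1 library (0 without SC library 12). For cHCs against OHCs (P22) these counts were 9, 1, 8, 0 and 0, with 1 at 10 counts in every library (where 1 gene of the set was tested), 0 with the compared groups alone and from 1 to 4 without 1 library. For IHCs against OHCs (P22), DESeq2 called 6, edgeR without a filter 6, and leaving out 1 library gave 1 to 3. With the files as attached, *Pla2g7* reversed, to 3.16 against SCs and 2.29 against OHCs (P22) on the log2 scale, since other libraries then stand in these groups. Other causes were not tested. At this depth, 3 counts correspond to up to 0.200 CPM, which bounds the levels of genes listed at 0.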
